A study of Mus musculus with 10 samples.

Results

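The complement genes C1qa, C1qb, C1qc, C1ra, C2, C3, C4b and Cfb were followed in visceral white adipose tissue (WAT) of mice. These 8 genes were chosen by symbol, as members of the complement system, from the 47937 genes of the count files. Poly(A) RNA was sequenced from C57BL/6 mice that were wild type (Mof+/+) or heterozygous for Mof (Mof+/-), the gene of a lysine acetyltransferase of histone H4. The standard diet (SD) groups held 3 Mof+/+ and 3 Mof+/- libraries from mice of 8 weeks. The high-fat diet (HFD) groups held 2 Mof+/+ and 2 Mof+/- libraries from mice of 27 weeks that had been on HFD for 20 weeks. These ages are those of the series description, and the account in the study's methods differs from it. Diet and age cannot be told apart. The study used the heterozygous mice for many organs, so the genotype was not limited to adipocytes.

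Complement is a cascade of blood and tissue proteins that marks microbes, dying cells and immune complexes for removal. The classical pathway starts when C1q, built from the chains of C1qa, C1qb and C1qc, binds its target and switches on the proteases C1r and C1s. These cut C4 and C2, whose fragments form an enzyme that cuts C3. The alternative pathway uses factor B and factor D to cut more C3. In fat, C1q is made mainly by macrophages, and factor D, also called adipsin, by adipocytes.

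On SD, transcripts of the 3 C1q chains were higher in Mof+/- than in Mof+/+ WAT, by 1.21 to 1.40 on the log2 scale after TMM normalization, which scales the libraries to each other by the bulk of their genes. In Mof+/+ WAT they were higher on HFD than on SD, by 2.18 to 2.48 on that scale. Neither difference was called for C1ra, C2, C3, C4b or Cfb, and between genotypes on HFD or between diets in Mof+/- no gene at all was called, these 8 included. The calls on SD were lost under several other settings, some of which left the fold changes as large, and the SD Mof+/- libraries also differed from the SD Mof+/+ libraries in sex-linked transcripts. A gene was called when its adjusted p was under 0.05 in edgeR's quasi-likelihood test, with Benjamini-Hochberg adjustment over all genes tested.

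The libraries held between 1044355 counts on genes (HFD Mof+/- replicate 1) and 17171947 (SD Mof+/- replicate 1), with a median of 7788745. Kat8, the symbol of Mof, was at 20.4 to 21.5 CPM (counts of a gene scaled to its library's total of counts on genes) in SD Mof+/+ libraries and at 11.5 to 18.8 CPM in SD Mof+/- libraries. On HFD it was at 18.1 and 19.2 CPM in Mof+/+, and at 20.1 and 10.5 CPM in the libraries labelled Mof+/- replicates 1 and 2, where the value of 20.1 CPM rested on 21 counts (95% exact Clopper-Pearson interval 12.4 to 30.7 CPM) and cannot place that library against the wild type. The library labelled HFD Mof+/- replicate 1 also held 26.9% of its counts on mitochondrial genes and 5.38% on 8 skeletal muscle markers, against at most 8.82% and 0.130% in the others. All 8 adipocyte markers were detected in every library, and their sum ranged from 5034 to 21815 CPM. Xist, the transcript of the inactive X chromosome, was at 46.1 to 139 CPM in the 3 libraries labelled SD Mof+/- and had 0 counts in the other 7. The 4 Y-linked genes examined had 0 counts in the SD Mof+/- libraries and summed to 77.6 to 225 CPM elsewhere. The study's methods describe the WAT donors as male, which these transcripts in the SD Mof+/- libraries go against. Sex therefore cannot be told apart from genotype on SD, or from diet in Mof+/-. Inside the files, the heading of the third SD Mof+/+ library names it heterozygous and that of the third SD Mof+/- library names it a control. The grouping here follows the sample labels. The third SD Mof+/- library had 58.0 CPM of Xist and 11.5 CPM of Kat8, and the third SD Mof+/+ library 0 and 20.4 CPM. In these values both lay with the other libraries of their labelled groups. In bulk tissue, fewer cells of a type and less RNA per cell cannot be told apart.

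The C1q chains lie next to each other on the minus strand of mouse chromosome 4 (GRCm38), C1qb at chr4:136880129-136886187, C1qc at chr4:136889804-136893065 and C1qa at chr4:136895917-136898803. Over the 10 libraries, the log2 CPM of the chains correlated with each other at Pearson's r between 0.954 and 0.98, a description over libraries that share depth and tissue makeup. Since they moved together, the bases before their start sites are shown, taken from RefSeq promoters (GRCm38.p6), which listed 4 of the 8 genes. Capitals mark the letters GAGGAA, or TTCCTC where read from the opposite strand, the core recognised by the myeloid factor PU.1. The C1qb stretch is chr4:136886201-136886450 and the C1qc stretch chr4:136893066-136893164, both written 5′ to 3′ on the minus strand.
C1qb: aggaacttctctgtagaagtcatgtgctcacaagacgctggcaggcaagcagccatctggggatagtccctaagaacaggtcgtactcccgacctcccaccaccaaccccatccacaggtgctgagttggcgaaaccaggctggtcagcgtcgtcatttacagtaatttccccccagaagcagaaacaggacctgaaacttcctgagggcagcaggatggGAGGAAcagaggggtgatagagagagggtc
C1qc: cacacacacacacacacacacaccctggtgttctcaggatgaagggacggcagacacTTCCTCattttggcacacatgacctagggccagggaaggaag
The C1qc stretch is shorter because the other bases before its RefSeq start lie after its GENCODE start, within the annotated transcript, and are not shown. The C1qb match began 30 bases before the RefSeq start (position −30) and the C1qc match at position −193. GAGGAA on either strand was found in 23.3% of the 32851 RefSeq promoters over the same 250 bases, so a match is common and describes only the letters.

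C1qa, which encodes the A chain of C1q, was at 190, 130 and 195 CPM in SD Mof+/+ replicates 1 to 3. It was at 313, 311 and 426 CPM in the SD Mof+/- replicates. On HFD it was at 538 and 883 CPM in Mof+/+ and at 184 and 652 CPM in Mof+/-. Every SD Mof+/- library thus lay above every SD Mof+/+ library, and both HFD Mof+/+ libraries lay above all SD libraries, whereas the HFD Mof+/- libraries lay far apart. The spread of the latter pair exceeded counting error, since the 95% exact Clopper-Pearson interval was 159 to 212 CPM in replicate 1, which rested on 192 counts, and 630 to 673 CPM in replicate 2. Such intervals cover counting error only.

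C1qb, which encodes the B chain, was at 178, 162 and 212 CPM in SD Mof+/+ and at 285, 295 and 404 CPM in SD Mof+/-. On HFD it was at 714 and 1162 CPM in Mof+/+ and at 195 and 729 CPM in Mof+/-. C1qc, which encodes the C chain, was at 160, 125 and 189 CPM in SD Mof+/+ and at 263, 256 and 355 CPM in SD Mof+/-, without overlap. On HFD C1qc was at 551 and 934 CPM in Mof+/+ and at 253 and 447 CPM in Mof+/-. For C1qc, unlike C1qa and C1qb, both HFD Mof+/- libraries fell below both HFD Mof+/+ libraries. The ratio of C1qa to C1qb stayed between 0.754 and 1.10 in the 10 libraries, and that of C1qc to C1qb between 0.613 and 1.29.

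**Figure D1:**
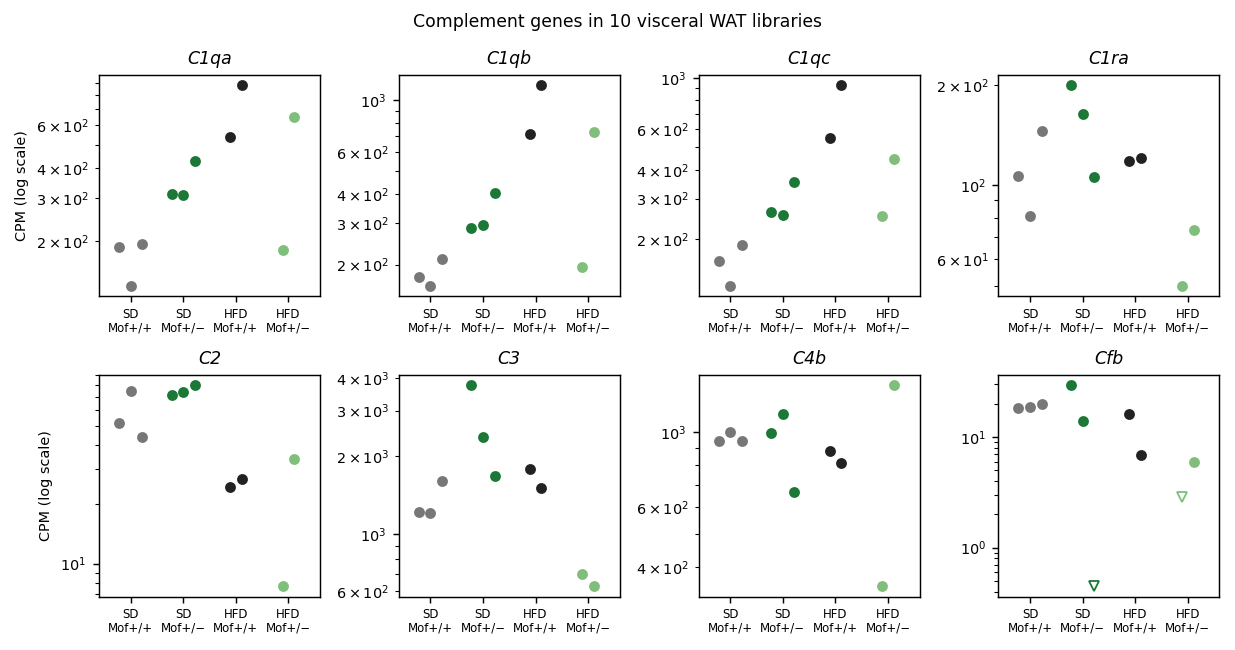
CPM of each complement gene (log axis, own scale per gene) in every library of the 4 groups, 1 point a library. Open triangles mark libraries with 0 counts, drawn at the level of 3 counts. C1qa, C1qb and C1qc share a pattern, lowest in SD Mof+/+ and highest in an HFD Mof+/+ library, and Cfb had 0 counts in SD Mof+/- replicate 3 and HFD Mof+/- replicate 1.

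C1ra and C2 encode classical pathway proteases. C1ra (chr6:124512405-124523443) was at 107, 80.7 and 145 CPM in SD Mof+/+, at 200, 164 and 106 CPM in SD Mof+/-, at 118 and 121 CPM in HFD Mof+/+ and at 49.8 and 73.4 CPM in HFD Mof+/-. The SD groups overlapped through the third Mof+/- library, and the HFD Mof+/- libraries were the lowest of all. C2 (chr17:34862604-34898265) was at 51.7, 74.9 and 43.6 CPM in SD Mof+/+ and at 71.1, 73.6 and 80.3 CPM in SD Mof+/-. On HFD C2 was at 24.5 and 26.7 CPM in Mof+/+ and at 7.66 and 33.8 CPM in Mof+/-. All 4 HFD libraries lay below all 6 SD libraries. The value of 7.66 CPM rested on 8 counts (95% interval 3.31 to 15.1 CPM). C1rb, the near-identical copy of C1ra, held at most 1 count in any library, and how reads shared by C1ra and C1rb were counted is uncertain.

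C3 and C4b encode the proteins that are cut and bound covalently to targets. C3 (chr17:57203970-57228136, minus strand) was at 1215, 1203 and 1606 CPM in SD Mof+/+ and at 3777, 2372 and 1674 CPM in SD Mof+/-. On HFD it was at 1787 and 1502 CPM in Mof+/+ and at 697 and 625 CPM in Mof+/-. In CPM, C3 was therefore higher in every Mof+/- library on SD and lower in every Mof+/- library on HFD, where the direction turned after a correction for transcript length, and the 2 HFD Mof+/- libraries, unlike for C1q, lay close together. C4b (chr17:34728380-34743882) was at 939, 1002 and 944 CPM in SD Mof+/+, at 997, 1129 and 666 CPM in SD Mof+/-, at 878 and 808 CPM in HFD Mof+/+ and at 350 and 1377 CPM in HFD Mof+/-. Its lowest and its highest value were thus those of the same group. C4a, the near-identical copy of C4b, held at most 29 counts in any library, and how reads shared by C4a and C4b were counted is uncertain.

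The 250 bases before the C3 start are shown because C3 had the largest fitted interaction of genotype and diet among the 8 genes. They lie at chr17:57228137-57228386 and are written 5′ to 3′ on the minus strand, with capitals at matches to TTNNGNAA, a core recognised by C/EBP factors, at positions −70, −58 and −45.
C3: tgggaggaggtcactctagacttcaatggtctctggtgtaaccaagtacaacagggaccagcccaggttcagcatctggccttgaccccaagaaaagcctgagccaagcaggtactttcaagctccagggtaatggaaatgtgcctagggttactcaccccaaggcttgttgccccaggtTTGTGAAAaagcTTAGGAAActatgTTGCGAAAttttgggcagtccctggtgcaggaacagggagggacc
The letters TTNNGNAA on either strand were found in 36.8% of RefSeq promoters, and the third match reads the motif on both strands. The same letters were found in C1qc at position −81 and in C1ra at −72 and −29, outside the stretches shown, so that 3 of the 4 promoters held them. No match in these 250 bases of C1qb, C1qc, C1ra or C3 was found to GAAANNGAA (interferon-stimulated element, 7.13% of promoters), TTCNNNGAA (gamma-activated site, 7.02%), GGANTTTCC (NF-kappaB, 1.07%) or TATAAA (12.4%).

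Cfb, the gene of factor B of the alternative pathway (chr17:34856374-34862518), had the lowest CPM of the 8 genes in every library. It was at 18.5, 18.9 and 20.0 CPM in SD Mof+/+ and at 29.6, 14.0 and 0 CPM in SD Mof+/-. On HFD it was at 16.3 and 6.87 CPM in Mof+/+ and at 0 and 5.97 CPM in Mof+/-. The SD Mof+/- libraries thus lay on both sides of the SD Mof+/+ libraries. Read as up to 3 counts, the count of 0 allows up to 0.446 CPM in SD Mof+/- replicate 3 and up to 2.87 CPM in HFD Mof+/- replicate 1.

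Levels of different genes were compared per kilobase of exon, since exon lengths ran from 1040 bases (C1qa) to 5695 bases (C4b). In SD Mof+/+, C3 was highest at 261 ± 44.7 CPM per kb (SD, n = 3), followed by C1qb at 169 ± 23.6, C4b at 169 ± 6.12 and C1qa at 165 ± 34.4 CPM per kb. The last 3 of these did not differ beyond their spread. C1qc stood at 81.9 ± 16.4, C1ra at 37.2 ± 10.9, C2 at 14.7 ± 4.19 and Cfb at 6.78 ± 0.273 CPM per kb. In HFD Mof+/+ the order changed, with C1qb at 862 ± 292 (SD, n = 2), C1qa at 684 ± 235, C1qc at 385 ± 140 and C3 at 320 ± 39.2 CPM per kb. The first 2 of these overlapped within their spread, as did C1qc and C3. The remaining genes, C4b at 148 ± 8.70, C1ra at 40.0 ± 0.656, C2 at 6.61 ± 0.387 and Cfb at 4.10 ± 2.35 CPM per kb, kept their order.

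The first comparison set Mof+/- against Mof+/+ WAT on SD, where sex cannot be told apart from genotype. After TMM normalization, C1qa was at 402 ± 102 CPM (SD, n = 3) in Mof+/- and at 152 ± 30.0 CPM in Mof+/+, a log2 fold change of 1.40 (SE 0.28, adjusted p = 0.0369, edgeR). The log2 fold change was 1.21 for C1qb (SE 0.27, adjusted p = 0.0429) and 1.26 for C1qc (SE 0.27, adjusted p = 0.0418). With these, 3 of the 8 genes were called, all higher in Mof+/-, against 5.24% of the 13864 genes tested. For C3 the log2 fold change was 1.30 (SE 0.32), as large as for C1q, with an adjusted p of 0.0508. It was 0.85 for C1ra (adjusted p = 0.116), 0.76 for C2 (adjusted p = 0.127), 0.30 for C4b (adjusted p = 0.491) and −0.07 for Cfb (SE 1.09, adjusted p = 0.974). In raw CPM, 4 of the 8 genes (C1qa, C1qb, C1qc and C3) were higher in every Mof+/- library, against 9.71% of the genes tested. In TMM-normalised CPM, 6 were (C1ra and C2 in addition), against 17.6%. The median log2 fold change was 1.03 over the 8 genes and −0.07 over all genes tested.

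The C1q calls on SD were narrow. When any 1 Mof+/+ library or Mof+/- replicate 2 was left out, none of the 8 genes was called, although the log2 fold change of C1qa stayed between 1.19 and 1.52 over all 6 omissions, and that of C1qb between 0.98 and 1.33. Of all genes, those 4 fits called 19, 35 and 74 (without Mof+/+ replicates 1, 2 and 3) and 17 (without Mof+/- replicate 2), against 727. DESeq2 called 5 of the 8 (C1ra and C3 in addition) and 2211 of the 13864 genes. With all 10 libraries in one fit the log2 fold changes were 1.41, 1.21 and 1.26 for C1qa, C1qb and C1qc, and none was called, with 194 calls over all genes. Long transcripts were relatively less abundant in the SD Mof+/- libraries: Spearman's rho between log2 exon length and the deviation from the mean of the 10 libraries, across genes, was 0.225 to 0.313 in SD Mof+/+ and −0.285 to 0.079 in SD Mof+/-. After a correction for length the log2 fold changes fell to 0.48 for C1qa (adjusted p = 0.254), 0.30 for C1qb (0.432) and 0.73 for C1qc (0.104), none called, whereas C3 reached 1.51 (adjusted p = 0.0337, edgeR). With the libraries grouped by the column headings, C1qa was at a log2 fold change of 0.08, C1qb at 0.05 and C1qc at 0.09. No gene was then called by edgeR, and this grouping put libraries with and without Xist together in each SD group.

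**Figure D2:**
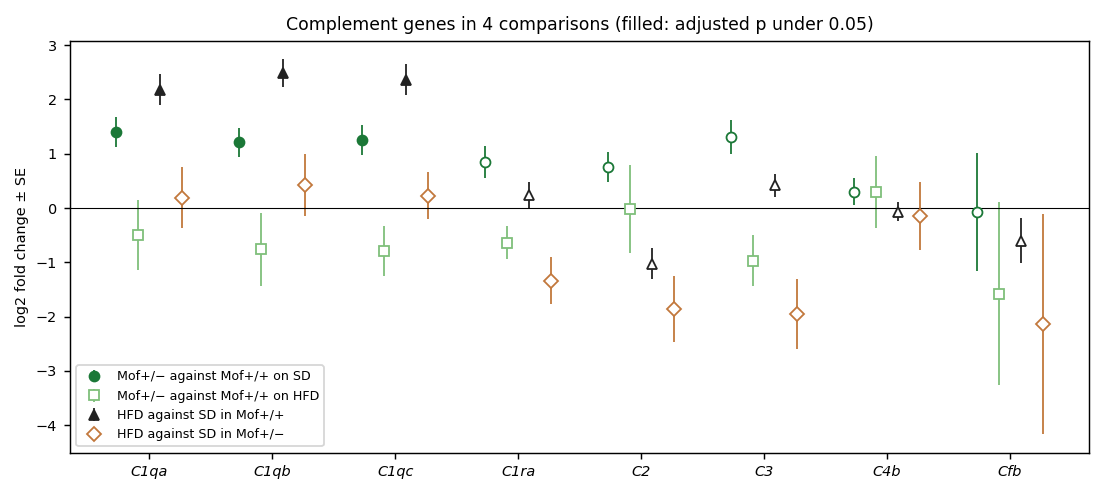
Fitted log2 fold change (edgeR) of each complement gene with its standard error in 4 comparisons; filled symbols had an adjusted p under 0.05. C1qa, C1qb and C1qc are filled for genotype on SD (1.21 to 1.40) and for diet in Mof+/+ (2.18 to 2.48), and all other symbols are open.

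Of 10 general macrophage markers, edgeR called 0 between genotypes on SD. Of these, 7 had a positive and 3 a negative log2 fold change, and the median was 0.30, against −0.07 over all genes. Whether C1q differed from these markers was not tested. Their summed level was 1490, 1001 and 1752 CPM in SD Mof+/+ and 1651, 1322 and 1035 CPM in SD Mof+/-, which overlapped, and no marker was at 0 in these libraries. The summed C1q level divided by this sum was 0.354, 0.417 and 0.340 in SD Mof+/+ and 0.521, 0.652 and 1.15 in SD Mof+/-, without overlap. Lyz2 was the largest part of the sum, at 657, 454 and 1000 CPM in SD Mof+/+ and 687, 677 and 602 CPM in SD Mof+/-. Exon lengths of the markers ran from 667 to 6371 bases, against 1040 to 1931 for C1q. The ratio was not corrected for length. Markers of other cell types were called between genotypes on SD. The 7 mesothelial markers summed to 23.8 to 60.8 CPM in Mof+/+ and to 179 to 369 CPM in Mof+/-, and 4 of the 7 were called higher. The 6 endothelial markers summed to 1003 to 2542 CPM in Mof+/+ and to 160 to 231 CPM in Mof+/-, and 5 of the 6 were called lower. In addition, 3 of 8 adipocyte and 2 of 9 fibroblast markers were called higher in Mof+/-, and 3 of the 5 nervous tissue markers tested were called lower. The only hepatocyte marker tested and 1 of 3 ovary and uterus markers tested were called higher. Single libraries stood apart in some of these sums, with Mof+/+ replicate 2 at 1178 CPM of nervous tissue markers, Mof+/+ replicate 3 at 513 CPM of lymphocyte markers and Mof+/- replicate 2 at 394 CPM of hepatocyte markers. The part of sex, transcript length and these cell types in the C1q values was not tested, except for length as given above.

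**Figure D3:**
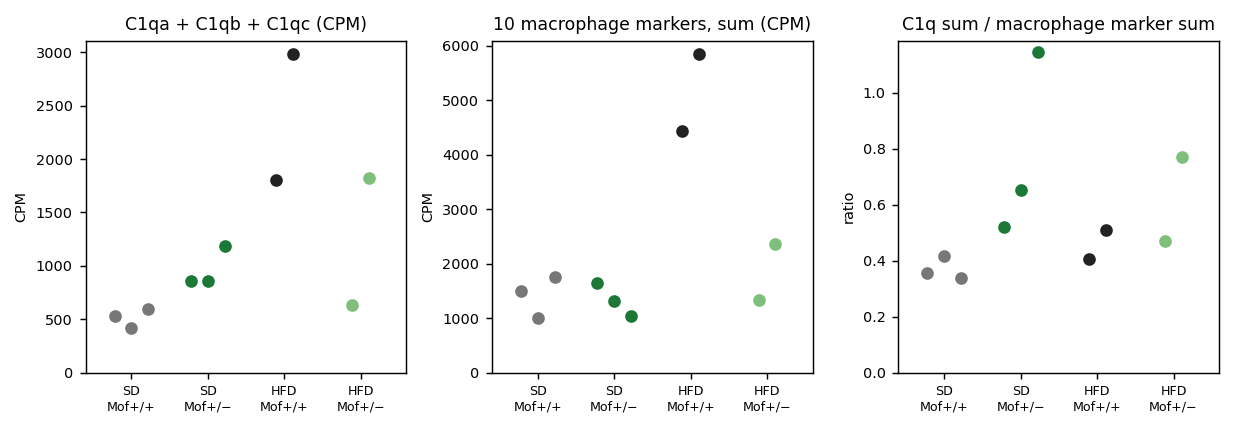
Summed CPM of C1qa, C1qb and C1qc (left), summed CPM of 10 macrophage markers (middle) and the ratio of the first sum to the second (right), 1 point a library in each group, axes from 0. The ratio is at most 0.417 in SD Mof+/+ and at least 0.521 in SD Mof+/-, while the macrophage sum reaches 4432 and 5847 CPM in HFD Mof+/+.

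Mof+/- and Mof+/+ WAT were next compared on HFD. edgeR called 0 of the 8 genes and 0% of the 14120 genes tested, where 1732 genes had an unadjusted p under 0.05 but none of the 8 did. DESeq2 called 209 genes and none of the 8. The fitted log2 fold change was −0.50 for C1qa, −0.76 for C1qb, −0.79 for C1qc, −0.64 for C1ra, −0.97 for C3 and −1.58 for Cfb, with standard errors between 0.30 and 1.69. It was −0.02 for C2 and 0.30 for C4b, and the median over the 8 genes was −0.70, against −0.24 over all genes. In raw CPM, 4 genes (C1qc, C1ra, C3 and Cfb) were lower in both Mof+/- libraries, against 45.6% of the genes tested. A share of 4 in 8 was near that background.

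The values on HFD rested on which Mof+/- library was used. Without Mof+/- replicate 1, the library rich in muscle and mitochondrial transcripts, the log2 fold change was 0.04 for C1qa, −0.19 for C1qb, −0.56 for C1qc and −1.23 for C3 (adjusted p = 0.00707, edgeR). In that fit C3 and C4b (0.88, adjusted p = 0.0241, edgeR) were called, as were 4326 genes in all. Without Mof+/- replicate 2, all 8 genes were called lower. That fit called 7551 genes in all, of which 2155 were higher, and the median log2 fold change over all genes tested was −1.48. In both fits the lone Mof+/- library was assumed to vary like the Mof+/+ libraries. After the length correction, which moved the median over all genes to 0.62, the log2 fold change on HFD turned to 0.34 for C3, 0.33 for C1ra, 0.64 for C2 and 0.02 for C1qc, none called.

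HFD was compared with SD in Mof+/+. C1qa was at 752 ± 264 TMM-normalised CPM (SD, n = 2) on HFD and at 166 ± 32.3 CPM (SD, n = 3) on SD, a log2 fold change of 2.18 (SE 0.28, adjusted p = 0.0089, edgeR). The log2 fold change was 2.48 for C1qb (SE 0.26, adjusted p = 0.00515) and 2.36 for C1qc (SE 0.28, adjusted p = 0.00727). These 3 of the 8 genes were called, against 9.75% of the 14939 genes tested. C2 lay on the other side, with a log2 fold change of −1.03 and an adjusted p of 0.0666. It was called lower with DESeq2 (−1.04, adjusted p = 0.0181), with at least 10 counts required in every library (adjusted p = 0.0429, edgeR), under a replicate block (adjusted p = 0.0437, edgeR) and without SD Mof+/+ replicate 3 (−1.20, adjusted p = 0.0326, edgeR). Those fits called 2990, 1987, 1460 and 2230 genes in all, against 1457. C2 was not called after the length correction (adjusted p = 0.07, edgeR) or without a filter on low counts (0.0545). In one fit of all 10 libraries its adjusted p was 0.433 (edgeR), and without SD Mof+/+ replicate 1 or 2 it was 0.116 or 0.102. C3 (0.42, adjusted p = 0.243), C1ra (0.24), C4b (−0.07) and Cfb (−0.60) were not called. In raw CPM the 3 C1q genes were higher in both HFD libraries, against 21.0% of genes, and C2, C4b and Cfb were lower in both, against 28.2%. In TMM-normalised CPM, 4 were higher in both (C3 in addition), against 25.7% of genes. C2 and Cfb, but not C4b, were then lower in both, against 23.5%. The median over the 8 genes was 0.33, against −0.05 over all genes.

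The rise of C1q with diet in Mof+/+ was kept by all 3 chains after the length correction, at log2 fold changes of 1.65, 1.96 and 2.03 for C1qa, C1qb and C1qc. C1qb was called in each of the 5 fits that left out a library, of which 2 left a single HFD library that was assumed to vary like the SD libraries, while C1qa and C1qc lost their call without SD Mof+/+ replicate 1 (2.26 and 2.37, both adjusted p = 0.0504, edgeR) and without HFD Mof+/+ replicate 2 (1.79 and 1.94, adjusted p = 0.0813 and 0.0586, edgeR). Those 2 fits called 250 and 64 genes in all, against 1457. With all 10 libraries in one fit C1qa was at 2.16 (adjusted p = 0.0534, edgeR), and C1qb and C1qc were called. By the column headings no gene was called, with the 3 chains at 1.36, 1.78 and 1.65. Markers of cell types also moved with diet in Mof+/+. Of the 10 macrophage markers, 6 were called higher and 1 lower on HFD, with a median log2 fold change of 1.73, and their sum was 4432 and 5847 CPM on HFD against 1001 to 1752 CPM on SD. The ratio of the C1q sum to that sum was 0.407 and 0.510 on HFD, which overlapped the SD range of 0.340 to 0.417. In the same comparison 3 of 6 endothelial and 3 of the 7 nervous tissue markers tested were called lower, and of 8 adipocyte markers 1 was called higher and 2 lower. The part of these cell types in the values of C1q and of the other complement genes was not tested.

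In Mof+/- WAT edgeR called 0 of the 8 genes between HFD and SD, and 0% of the 13610 genes tested, with 1166 genes at an unadjusted p under 0.05. DESeq2 called 402 genes, of which C3 was 1. The log2 fold change was 0.19 for C1qa, 0.43 for C1qb and 0.23 for C1qc, with standard errors of 0.44 to 0.57. Without HFD Mof+/- replicate 1, rich in muscle and mitochondrial transcripts, it was 0.77, 1.02 and 0.49. Without HFD Mof+/- replicate 2 it was −0.84, −0.66 and −0.11, so the direction rested on which HFD library was used. C1ra (−1.34), C2 (−1.86) and C3 (−1.95, SE 0.65) each had an adjusted p of 0.473. These 3 genes were lower in both HFD libraries than in every SD library, against 17.7% of genes. The median was −0.75 over the 8 genes and −0.26 over all genes.

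The genotype by diet interaction asks whether the change with diet differed between genotypes. It was fitted to all 10 libraries, and a negative value means that the log2 ratio of HFD to SD was lower in Mof+/-. edgeR called 0 of the 8 genes, against 0.0881% of the 15897 genes tested. All 8 values were negative, with a median of −1.79 against −0.41 over all genes, and 5 of the 8 had an unadjusted p under 0.05, as did 1969 of all genes tested. C3 (−2.38, SE 0.55, adjusted p = 0.151) and C1qc (−2.13, SE 0.51, adjusted p = 0.156) had the smallest adjusted p. C1qb was at −2.05 (adjusted p = 0.266), C1qa at −1.99 (adjusted p = 0.283) and C1ra at −1.58 (adjusted p = 0.247). Without HFD Mof+/- replicate 2, 6 of the 8 were called, beside 3163 genes in all. Without HFD Mof+/- replicate 1 none was, and C3 stood at −2.55 (adjusted p = 0.0975, edgeR). After the length correction the interaction was −0.73 for C1qa, −0.83 for C1qb, −0.96 for C1qc, −0.62 for C1ra and −1.40 for C3, and C4b turned to 0.37, while the median over all genes turned to 0.30. Since Xist was present in the SD Mof+/- group alone, sex cannot be told apart from this interaction.

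A list of 48 other complement genes gave the rest of the system. On SD, 29 were tested between genotypes, of which 4 were called higher and 2 lower in Mof+/-, against 5.24% of all genes called. Fcna, the lectin pathway recognition protein ficolin A, rose from 57.2, 21.9 and 47.9 CPM in Mof+/+ to 363, 324 and 262 CPM in Mof+/- (log2 fold change 3.26, SE 0.37). Cfp, which encodes properdin, the stabiliser of the alternative pathway enzyme, rose by 1.91. The inhibitors of the membrane attack complex Cd59a and Cd59b rose by 1.87 and 3.37. C7, a component of that complex, was at 387, 228 and 437 CPM in Mof+/+ and at 12.4, 9.40 and 0 CPM in Mof+/- (−5.22). Cd93, a receptor-like protein of endothelial and myeloid cells, had a log2 fold change of −2.98, and endothelial markers were also lower in these libraries. C1s1, the protease partner of C1r, was at 0.79 (adjusted p = 0.106, edgeR) and Cfd, factor D, at 0.71 (adjusted p = 0.144). The receptors C3ar1 and C5ar1 were at −0.10 and 0.52, not called. The list count fell to 1, 1 and 3 without Mof+/+ replicates 1, 2 and 3, and to 0 without Mof+/- replicate 2. Those fits had 17 to 74 calls over all genes. Grouped by the column headings, Cd59a and Cd59b turned to negative log2 fold changes and no gene was called.

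Between diets in Mof+/+, 32 of these genes were tested, with 8 called higher and 5 lower on HFD, against 9.75% of all genes called. Of the 9 receptor genes in the list, 5 were called, all higher. C3ar1, the C3a receptor, went from 21.2, 9.86 and 27.5 CPM on SD to 151 and 219 CPM on HFD (3.37), and C5ar1, the C5a receptor, rose by 2.37. The integrin chains of the complement receptors for fragments of C3, Itgam, Itgax and Itgb2, rose by 3.35, 4.17 and 2.30. C5ar2 (1.64), Vsig4 (3.47), Cd93 (−0.19) and Cr2 (−3.81) were not called. The 5 that rose are genes of myeloid cells, and 6 of the 10 macrophage markers were called higher in the same libraries and 1 called lower. Among these markers, Cd163 was at 49.0 to 73.4 CPM on SD and at 9.82 and 11.2 CPM on HFD. Cfp, Cd59a and Serping1, the C1 inhibitor, rose by 1.26, 1.47 and 0.82.

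Cfd had the highest CPM of the genes called lower on HFD in Mof+/+. It was at 9901 to 12413 CPM in SD Mof+/+ and at 624 and 533 CPM in HFD Mof+/+, a log2 fold change of −4.20 (SE 0.26). In Mof+/- it was at 12175 to 16519 CPM on SD and at 578 and 1842 CPM on HFD. Both genotypes were thus far lower on HFD, although only the Mof+/+ difference was called and the interaction, at 0.54, had an adjusted p of 0.789 in edgeR. C7 (−2.72), the terminal pathway inhibitor vitronectin Vtn (−1.09) and the membrane regulator Susd4 (−5.04) also fell. C1s1 was at −0.03. The count of 13 fell to 7 without SD Mof+/+ replicate 1, to 6 without HFD Mof+/+ replicate 1 and to 3 without HFD Mof+/+ replicate 2, where the calls over all genes fell from 1457 to 250, 249 and 64.

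**Figure D4:**
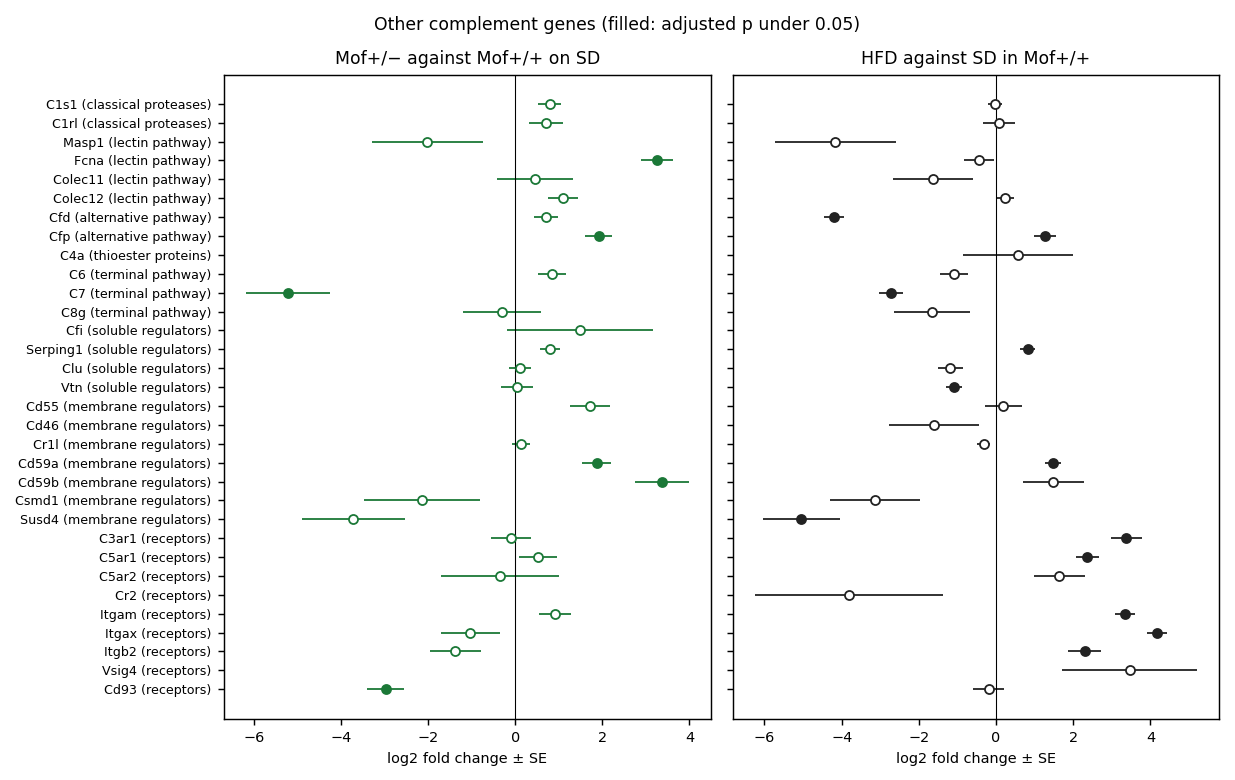
Fitted log2 fold change with standard error of other complement genes, with their role, between genotypes on SD (left) and between diets in Mof+/+ (right); filled points had an adjusted p under 0.05. The receptor genes C3ar1 (3.37) and Itgax (4.17) rise with diet at right, Cfd (−4.20) falls, and Fcna (3.26) and C7 (−5.22) differ with genotype at left.

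Among the 48, edgeR called 0 of 27 tested between genotypes on HFD, as it called no gene there. DESeq2 called 2 of these, among 209 genes in all, and 6 had an unadjusted p under 0.05, among 1732. Between diets in Mof+/- edgeR called 0 of 28 tested and no other gene. DESeq2 called 5 of these, among 402 genes in all, and 8 had an unadjusted p under 0.05, among 1166. The interaction was called for 1 of 34, against 0.0881% of all genes, and this was Itgam (−5.27, adjusted p = 0.00669, edgeR). Itgam was at 10.3 to 13.9 CPM in SD Mof+/+, at 15.3 to 20.1 CPM in SD Mof+/-, at 88.2 and 136 CPM in HFD Mof+/+ and at 4.79 and 4.70 CPM in HFD Mof+/-, the last pair resting on 5 and 26 counts. The call was absent when either HFD Mof+/+ library was left out and after the length correction.

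The genes most like the 8 were sought among 9724 genes outside both complement lists, by Pearson's r of log2 CPM over the 10 libraries. For the mean of the 3 C1q chains they were Uap1l1 (0.988), Hexa (0.986), which encodes a lysosomal hydrolase, and Metrnl (0.969). For C3 they were Rnase4 (0.960), Ccn3 (0.941) and Plat (0.940), and for C1ra Eif2s2 (0.961), Eef1a1 (0.960) and Osr1 (0.954). C3 and C1ra correlated with each other at 0.921, and C3 with the C1q chains at −0.016 to 0.054. C2 was most like Vnn3 (0.980), C4b like Amigo1 (0.985) and Cfb like Nupl1 (0.986). These are descriptions over 10 libraries that share depth and tissue makeup.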

How the data were processed

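mRNA-seq libraries were made by the authors from 10 visceral WAT samples. Per the labels, reads were mapped to GRCm38 (mm10) with STAR and counted on genes with featureCounts (Subread 1.5.0-p1). The authors deposited raw counts per gene, without normalization. The annotation release is not given in the sources used here. Gene symbols were found for 47224 of the 47937 identifiers with the version dropped, and coordinates come from GENCODE M21. The members and lists were chosen with earlier results of these data known.

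Groups were compared in pairs with edgeR 4.0.16 (TMM, filterByExpr, quasi-likelihood test, Benjamini-Hochberg adjustment, threshold 0.05), on the libraries compared, or all 10 for the interaction. Separate animals are taken from the labels' statement of biological replicates. The procedure was tested on simulated data. Named genes were the 8 members, other complement genes called in any comparison, genes fixed by name (among them Cfd, C3ar1, C5ar1, C4a, C1rb and C1s1), and the 3 genes most like each profile, with a mean of at least 10 CPM. Not every gene of the lists is reported by name, but each count is over the full list. Correlations used log2 CPM with a prior count of 1. Totals from 1044355 to 17171947 set the precision, and a count of 0 was read as up to 3 counts. Both motif strands were searched. Alternatives were DESeq2 1.42.0, its size factors, TMM without mitochondrial and muscle genes, other filters on low counts, a replicate block, all libraries in one fit, a correction for transcript length (lowess, span 0.3), grouping by the column headings, and each library left out. R 4.3.3, Python 3.11.15, pandas 2.3.3 and matplotlib 3.10.9 were used.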

Additional observations from a re-analysis of the deposited data

Results flagged for a closer look

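For 7 of the 42 complement genes of both lists tested for the interaction, the effect of genotype or diet pointed in opposite ways in the 2 arms, each without overlap between libraries in CPM, and the value given is the fitted interaction. Among all 15897 genes that passed the filter over the 10 libraries, 6.29% did so. On HFD, 45.6% of the genes tested were lower in both Mof+/- libraries in CPM, and replicate 1 of these had the fewest counts and was rich in muscle and mitochondrial transcripts. For Itgam (−5.27) the interaction itself passed the test (adjusted p = 0.00669, edgeR). For the other 6 it did not: Fcna at −4.53 (adjusted p = 0.0957), Cfp at −2.09 (0.151), C3 at −2.38 (0.151), C1qc at −2.13 (0.156), Serping1 at −1.68 (0.156) and Cd59b at −2.95 (0.449). C1qc, C3 and Fcna were higher in Mof+/- on SD and lower in Mof+/- on HFD in CPM, although after a correction for transcript length C1qc (0.02) and C3 (0.34) were not lower on HFD. Cd59b was higher on HFD in Mof+/+ and lower on HFD in Mof+/- in CPM, neither called (adjusted p = 0.263 and 0.812, edgeR). The lower values in Mof+/- were 0 counts in replicate 1 and 12.3 CPM in replicate 2, close to the 12.6 CPM of SD Mof+/- replicate 1. For Cfp, Itgam and Serping1 the effects of both genotype and diet pointed in opposite ways in CPM. After TMM normalization the log2 fold change of Cfp on HFD was −0.08 (adjusted p = 0.949, edgeR).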

How the results depend on the processing

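Precision was limited by 2 or 3 libraries a group and by the 1044355 counts of HFD Mof+/- replicate 1. Counts of called genes that moved by over 1.5 times follow, members first and the other complement list second. For genotype on SD (3 and 6), DESeq2 gave 5 and 12, and the column headings 0 and 0. The members were at 0 with all 10 libraries in one fit and at 1 after the length correction. For genotype on HFD (0 and 0), the list was at 2 with DESeq2 and 1 in one fit. For diet in Mof+/+ (3 and 13), the headings gave 0 and 0, and the list was at 4 in one fit. For diet in Mof+/- (0 and 0), DESeq2 gave 1 and 5 and one fit 1 and 3. The list was at 5 without a filter on low counts and 1 after the length correction. For the interaction (0 and 1), DESeq2 gave 2 and 5 and no filter 3 and 4. The list was at 0 with at least 10 counts in every library, with the length correction and with the headings. With each library left out, members and list ranged over 0 to 4 and 0 to 8 (genotype, SD), 0 to 8 and 0 to 14 (genotype, HFD), 1 to 4 and 3 to 13 (diet, Mof+/+), 0 to 1 and 0 to 6 (diet, Mof+/-), and 0 to 6 and 0 to 8 (interaction). Over all genes, the calls for genotype on SD were 727, with 2211 in DESeq2, 194 in one fit and 376 after the length correction. They were 1840 without a filter, 0 by the headings and 17 to 1026 with a library left out. Calls for genotype on HFD were 0, with 209 in DESeq2 and 1 in one fit. For diet in Mof+/+ they were 1457, with 142 in one fit and 0 by the headings. For diet in Mof+/- they were 0, with 402 in DESeq2, 189 in one fit, 429 without a filter and 68 after the length correction. Calls for the interaction were 14, with 491 in DESeq2 and 380 without a filter. They were 38 with at least 10 counts in every library, 16 after the length correction and 0 by the headings.

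Replicate numbers did not pair the libraries, since the correlations of deviations between same-numbered libraries lay between −0.043 and 0.032. A replicate block left C1qb on SD at an adjusted p of 0.0501 (edgeR), 1 call fewer, and called C2 lower on HFD in Mof+/+ (−1.17, adjusted p = 0.0437). The list was at 4 for genotype on HFD and at 4 for diet in Mof+/- under the replicate block. Over all genes the block called 200 and 245 there, against 0 in each without it. No block was fitted for the interaction.

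Some log2 fold changes reversed. By the column headings on SD these were C2 (−0.10), Cfb (0.95), Cd59a (−0.25) and Cd59b (−0.06), with Cfb at 0.00 for diet in Mof+/+ and C2 at 0.02 for the interaction. After the length correction, which moved the median of all genes for genotype on HFD from −0.24 to 0.62, C1qc (0.02), C1ra (0.33), C2 (0.64) and C3 (0.34) reversed on HFD, and C4b for diet in Mof+/+ (0.04), diet in Mof+/- (0.38) and the interaction (0.37). C4b was also at 0.01 for the interaction with DESeq2 and with its size factors (0.01). With a library left out, the ranges were −1.11 to 0.51 for Cfb on SD, −1.56 to 0.04 for C1qa, −1.35 to 0.57 for C2 and −0.87 to 0.88 for C4b on HFD, and −0.10 to 0.00 for C4b between diets in Mof+/+. Between diets in Mof+/- they were −0.84 to 0.77 for C1qa, −0.66 to 1.02 for C1qb, −0.11 to 0.49 for C1qc and −1.30 to 0.46 for C4b, and for the interaction −1.24 to 0.57 for C4b. The causes were not tested.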
